A study of Mus musculus with 6 samples.

Results

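Myc, Npm1, Ncl and Nhp2 were compared between melan-a melanocytes and B16 melanoma cells of the mouse. They are 4 of the 3549 genes in the study's own list of genes that differed between these lines. Myc is a transcription factor of the basic helix-loop-helix leucine zipper family, which binds DNA as a dimer with Max. Among its best known targets are genes for the making of ribosomes, a process that takes place largely in the nucleolus. There RNA polymerase I transcribes the precursor of the ribosomal RNAs, small nucleolar ribonucleoproteins modify it, and assembly factors build it with ribosomal proteins into the small and large subunits. Npm1 (nucleophosmin) and Ncl (nucleolin) are abundant nucleolar proteins with roles in ribosome assembly and export. Nhp2 is a core protein of the H/ACA ribonucleoproteins, which convert uridines of ribosomal RNA into pseudouridines.

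Melan-a is a partially immortalized, non-tumorigenic melanocyte line, and B16 is a malignant melanoma line. Both derive from the C57/Bl6 strain, and each stands for its cell type as 1 line. Each of 6 Agilent whole mouse genome arrays carried RNA of both lines and stood for a separate biological replicate. Melan-a cells grew in RPMI 1640 with 5% fetal bovine serum and 200 nM of the phorbol ester phorbol 12-myristate 13-acetate, whereas the medium of B16 was DMEM, with bovine calf serum at 10%. Both were harvested 72 h after seeding. In replicates 1, 3 and 5 B16 RNA carried the dye Cy3 and melan-a RNA Cy5 (standard labelling), and in replicates 2, 4 and 6 the dyes were exchanged (flip labelling). Line, medium, serum and phorbol ester changed together, so their parts in any difference cannot be told apart. The paper also reports a shorter doubling time for B16 than for melan-a, and the part of growth rate cannot be told apart either. The arrays measured bulk RNA, in which fewer expressing cells and less RNA per cell cannot be told apart.

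The array files name probes but no genes, and the study's list names genes but no probes. A probe was therefore taken as a candidate for a gene when its mean ratio of melan-a over B16 on the 6 arrays equalled the listed one within 0.00051. All candidates were kept, which gave 19 probes among the 41174 on the array, namely 7 for Myc, 5 for Npm1, 5 for Ncl and 2 for Nhp2. The candidates were thus chosen by the mean ratio of this comparison. Their mean ratios are a description, and no test of melan-a against B16 is given for them. Values are log2 ratios of the normalized mean signals, in which a value below 0 stands for a higher signal in B16.

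Not every candidate can be the probe of its gene, because several listed genes shared the same mean ratio. For Myc, 7 listed entries had the same ratio and 7 probes matched it. The other entries were Aldh1l1, Fkbp11, Miga1, Ppil1, Xpo1 and 1 entry without a symbol. Npm1 shared its ratio with Cdca2, Mastl and Pon3, so that 5 probes matched 4 entries. Ncl shared its ratio with Tipin and 1 entry without a symbol, so that 5 probes matched 3 entries. Nhp2 shared its ratio with Mxd3 alone, and 2 probes matched these 2 entries. Which candidate belongs to which gene cannot be told apart here, and what is said below of a gene holds for each of its candidates unless a probe is named. As a ratio of melan-a over B16, the Myc candidates lay between 0.39952 and 0.40048, with the nearest probes outside at 0.39917 and 0.40144. The Npm1 candidates lay between 0.29783 and 0.29847, against 0.29673 and 0.29883 for the nearest probes outside. The Ncl candidates lay between 0.32159 and 0.32244, against 0.32148 and 0.32390 outside. The Nhp2 candidates lay between 0.25872 and 0.25943, against 0.25827 and 0.25990 outside.

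In B16 cells the signal of all 4 genes exceeded that of melan-a on each of the 6 arrays, whichever candidate was read. All 114 values of the 19 candidates were below 0. The selection by a mean ratio well below 1 had largely decided this, so it is a description only. In the mean over arrays the B16 signal was 2.50-fold that of melan-a for Myc, 3.35-fold to 3.36-fold for Npm1, 3.10-fold to 3.11-fold for Ncl and 3.85-fold to 3.87-fold for Nhp2. Of all probes with a value on every array, 10.8% were below 0 on all 6, a share that is not matched on the mean ratio. In limma, with thresholds of 0.10 for the adjusted p and of 1.5 for the fold, 6.31% of the tested probes were lower and 5.23% higher in melan-a. All 19 candidates were past these thresholds, which their mean ratio had in part decided, so nothing is read from that count. Every candidate had 1 spot per array and a summed signal of both dyes over the limit of 400 on all 6 arrays. The lowest was 582.3, in replicate 6. That limit says little on replicate 1, where almost every probe spot passed it and the median negative control spot summed to 533.4.

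**Figure D1:**
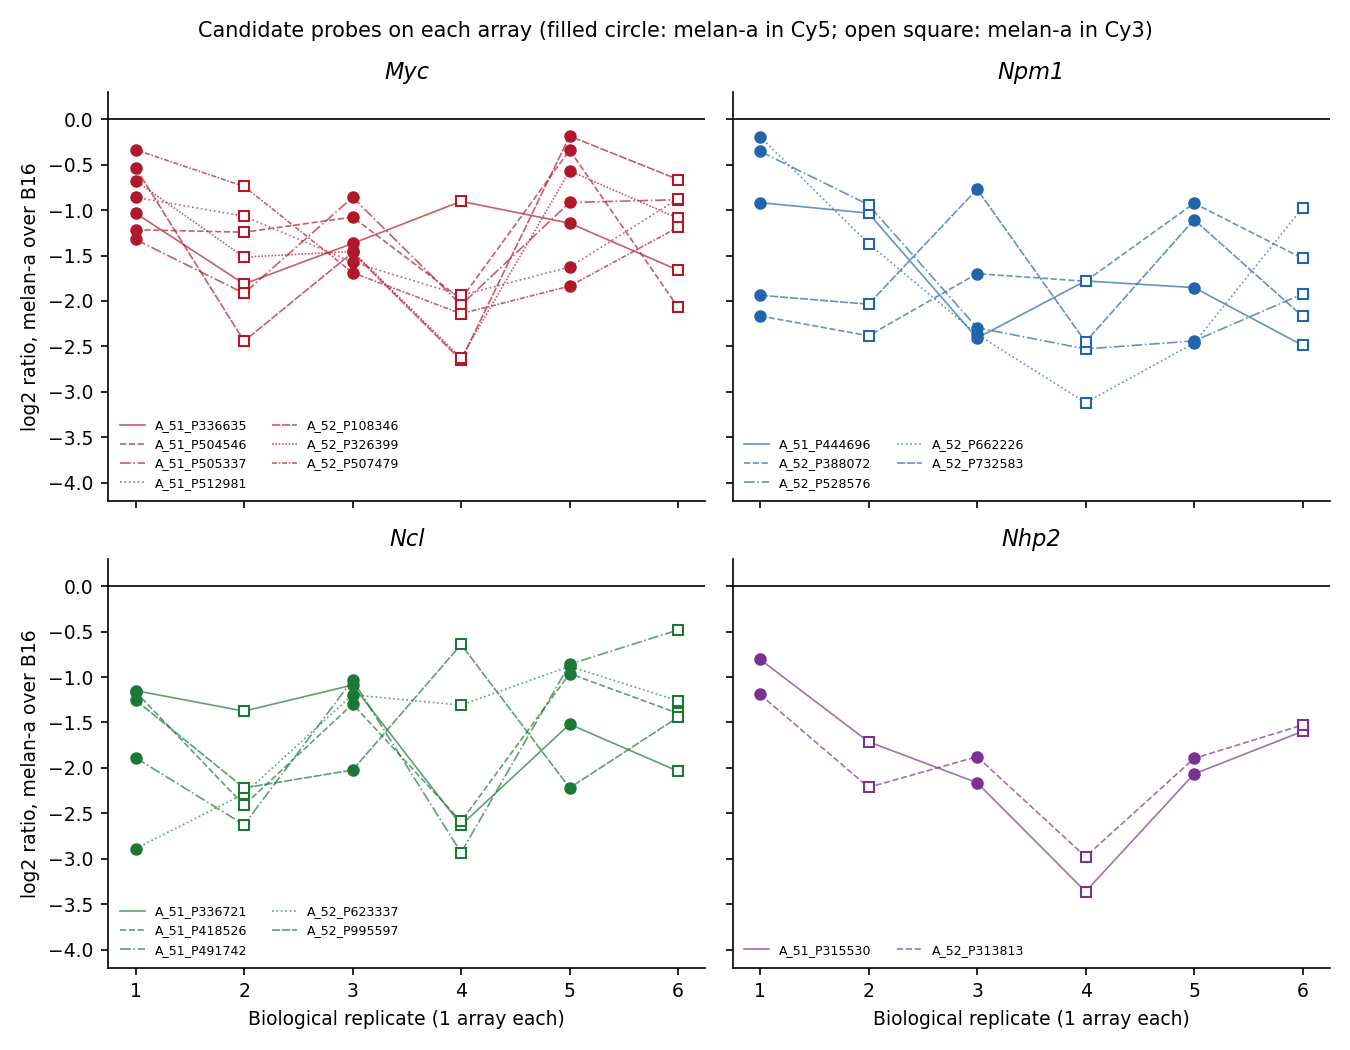
Each panel shows the candidate probes of 1 gene, with the biological replicate on the x axis and the log2 ratio of melan-a over B16 on the y axis; the horizontal line marks equal signal, and thin lines only join the values of 1 probe. Filled circles are arrays with melan-a in Cy5 and open squares arrays with melan-a in Cy3, and all 114 values lie below 0.

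Myc had a mean log2 ratio of -1.32 at each of its 7 candidates, the lower signal being that of melan-a, with an SD over the 6 arrays between 0.36 and 1.04 according to the probe. Single values lay between -2.65 and -0.19. The least variable candidate was A_51_P336635, whose log2 ratios in replicates 1 to 6 were -1.03, -1.81, -1.37, -0.90, -1.14 and -1.66. The most variable was A_52_P108346, with -0.53, -2.44, -1.47, -2.65, -0.19 and -0.66 in the same order. These candidates share a mean and differ in course: replicate 4 held the smallest difference of the first and the largest of the second.

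Candidate A_51_P505337 gave log2 ratios of -1.32, -1.92, -0.86, -2.04, -0.92 and -0.89, and A_51_P504546 gave -1.22, -1.24, -1.08, -1.98, -0.34 and -2.07. For A_52_P326399 they were -0.68, -1.52, -1.45, -2.63, -0.57 and -1.09. In 2 of these 3 probes the largest difference was again that of replicate 4. The log2 ratios of A_51_P512981 were -0.86, -1.07, -1.57, -1.94, -1.63 and -0.87, and those of A_52_P507479 were -0.34, -0.74, -1.69, -2.14, -1.84 and -1.19. Over all 7 candidates, 5 had their largest difference in replicate 4, and 3 had their smallest in replicate 5.

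The signals behind these ratios also varied from array to array. A_52_P507479 was the only Myc candidate whose 2 lines did not overlap across arrays, with melan-a signals from 243.6 to 359.6 (median 283.4) and B16 signals from 444.2 to 1284 (median 693.1). Its signal summed over both dyes was 796.3 to 1643, and the median of negative control spots, summed the same way, was 283.9 to 533.4 according to the array. In the other 6 candidates the range of melan-a signals over the arrays overlapped that of B16, although on each single array B16 was higher. The signals of A_51_P505337 were 3156 to 28388 in melan-a and 9549 to 53554 in B16.

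**Figure D2:**
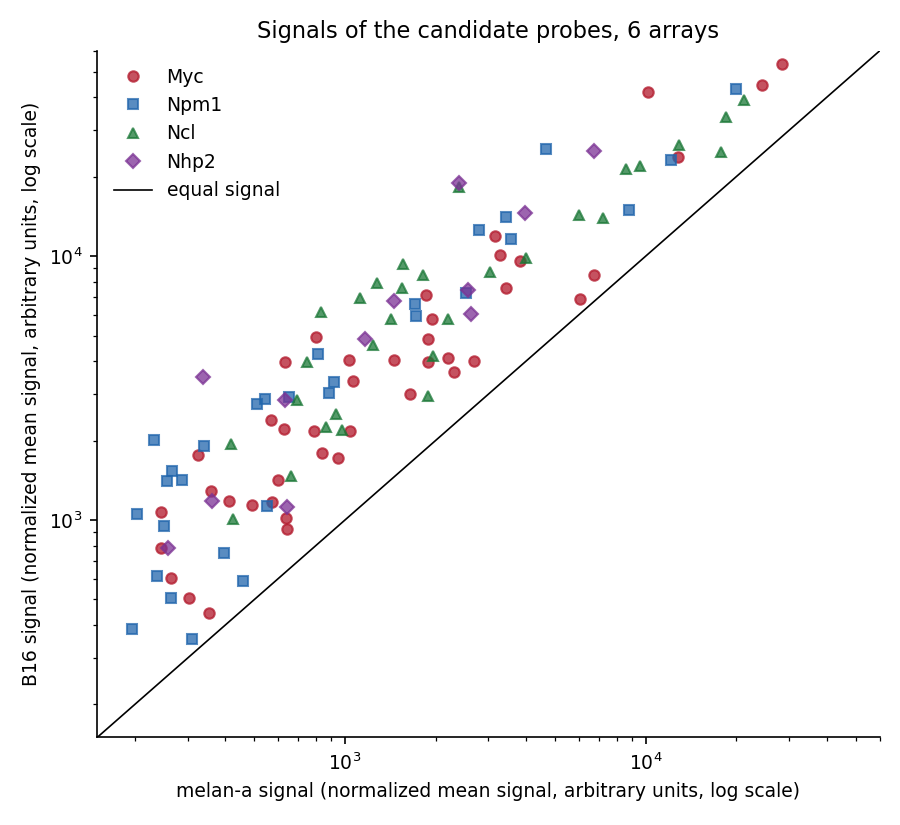
Each point is 1 candidate probe on 1 array, with the normalized mean signal of melan-a on the x axis and that of B16 on the y axis, both in arbitrary units on a log scale; the line marks equal signal. All 114 points lie above the line, from close to it (309.3 in melan-a and 353.2 in B16 for an Npm1 candidate) to far from it (231.8 and 2013 for the same probe in replicate 4).

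Npm1 encodes a histone chaperone of the granular nucleolus that moves between nucleolus and cytoplasm. The mean log2 ratio of its 5 candidates was -1.75 to -1.74, with an SD between 0.51 and 1.09 over the 6 arrays. A_52_P388072, the least variable, had log2 ratios of -2.16, -2.38, -1.70, -1.78, -0.92 and -1.53 in replicates 1 to 6. A_51_P444696 had -0.92, -1.03, -2.41, -1.78, -1.85 and -2.49. A_52_P528576 had -0.35, -0.94, -2.29, -2.53, -2.44 and -1.92. In the last of these, replicate 1 was close to equal signal, whereas in A_52_P388072 the same replicate held a difference of over 4-fold.

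The remaining Npm1 candidates were as far apart. The log2 ratios of A_52_P662226 were -0.19, -1.37, -2.37, -3.12, -2.46 and -0.97, the widest span of any candidate of the 4 genes. Those of A_52_P732583 were -1.94, -2.04, -0.77, -2.45, -1.11 and -2.17. Among the 5 candidates, 3 had their largest difference in replicate 4 and 3 had their smallest in replicate 1. A_52_P662226 was the only one with no overlap between the lines over arrays, with signals of 196.5 to 309.3 in melan-a (median 234.6) and 353.2 to 2013 in B16 (median 831.0). Its summed signal, 582.3 at the lowest, was also the dimmest of the 19 candidates. The median of negative control spots, summed the same way, was 283.9 to 533.4 according to the array. In replicate 1, where the log2 ratio of this probe was -0.19, its sum was 662.5 and the control median 533.4.

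Ncl encodes an RNA-binding protein that takes part in the transcription of ribosomal DNA and the first steps of its precursor's processing. Its 5 candidates had mean log2 ratios of -1.64 to -1.63, with an SD between 0.59 and 1.00. A_51_P336721 had log2 ratios of -1.15, -1.37, -1.09, -2.63, -1.52 and -2.04 in replicates 1 to 6. A_51_P418526 had -1.16, -2.41, -1.30, -2.59, -0.96 and -1.40, and A_51_P491742 had -1.89, -2.63, -1.03, -2.93, -0.86 and -0.48. In these 3 probes replicate 4 held the largest difference. The log2 ratios of A_52_P623337 were -2.89, -2.29, -1.20, -1.31, -0.88 and -1.26, and those of A_52_P995597 were -1.25, -2.22, -2.02, -0.64, -2.22 and -1.44. Here replicate 4 stood in the middle or held the smallest difference.

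For A_51_P418526 the melan-a signal was 978.7, 745.4, 4012, 1553, 7187 and 2194 in replicates 1 to 6, and the B16 signal was 2188, 3964, 9862, 9345, 14002 and 5788. B16 was higher on each array, and both signals were highest in replicate 5, the array with the highest median summed signal over all probes (4308, against 779.9 to 2542 on the others). No Ncl candidate had ranges that were separate between the lines over the arrays.

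The promoters of Ncl and Nhp2, the members with an entry in the RefSeq promoter table, are shown because both genes, like Myc, had a lower signal in melan-a. Each covers 300 bases, most of them before the gene's start (build GRCm38.p6), on the strand of the gene. For Ncl it is chr1:86359406-86359705, minus strand, and for Nhp2 chr11:51619523-51619822, plus strand. Capitals mark matches to 3 motifs, searched on both strands. The E-box CACGTG, which Myc binds as a dimer with Max, reads the same on both strands. The GC box is GGGCGG, which reads CCGCCC on the other strand, and the remaining motif is the box CCAAT, which there reads ATTGG.
Ncl: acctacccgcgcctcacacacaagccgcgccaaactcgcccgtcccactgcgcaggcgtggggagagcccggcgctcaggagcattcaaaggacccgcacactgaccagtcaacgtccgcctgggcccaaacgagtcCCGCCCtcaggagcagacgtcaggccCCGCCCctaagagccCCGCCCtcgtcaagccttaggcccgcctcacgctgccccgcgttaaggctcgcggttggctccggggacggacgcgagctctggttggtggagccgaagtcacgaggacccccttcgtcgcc
Nhp2: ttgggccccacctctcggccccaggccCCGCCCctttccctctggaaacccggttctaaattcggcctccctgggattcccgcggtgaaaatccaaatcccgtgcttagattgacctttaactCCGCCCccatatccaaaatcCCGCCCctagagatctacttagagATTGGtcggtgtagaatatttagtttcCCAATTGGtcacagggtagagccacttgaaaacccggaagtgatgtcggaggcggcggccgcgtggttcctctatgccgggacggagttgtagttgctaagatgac
Neither window held an E-box, which 7.2% of the 32851 promoters in the table held. Both held 3 GC boxes, all on the opposite strand, a motif present in 35.7% of the promoters. In Ncl they began at positions -113, -87 and -72 from the start, and in Nhp2 at -223, -127 and -107. Nhp2 also held 3 matches to the CCAAT box, at -83, -56 and -53, the last 2 of them overlapping, and Ncl held none, against 37.4% of promoters with at least 1. These are matches of letters within 300 bases and say nothing of binding.

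Of the 4 genes Nhp2 differed most in the mean ratio that chose the candidates. Its 2 candidates had a mean log2 ratio of -1.95, with an SD of 0.84 for A_51_P315530 and 0.61 for A_52_P313813. With median signals in place of mean signals they were at -2.25 and -2.05. Npm1 A_52_P662226 was then at -2.27, and the other Npm1 candidates lay between -2.04 and -1.82. The log2 ratios of A_51_P315530 were -0.80, -1.71, -2.16, -3.36, -2.07 and -1.60 in replicates 1 to 6. Those of A_52_P313813 were -1.19, -2.21, -1.88, -2.98, -1.90 and -1.53. Both had nearly the same course: they differed by 0.07 to 0.50 on single arrays, and their Pearson r over the 6 arrays was 0.92, a description over arrays that share array effects and a mean fixed by the selection. Both had the largest difference in replicate 4 and the smallest in replicate 1.

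For A_52_P313813 the melan-a signal was 2634, 1451, 3979, 2398, 6706 and 2572 in replicates 1 to 6, and the B16 signal was 6009, 6730, 14610, 18877, 24942 and 7413. B16 was higher on each array, while the lowest B16 signal was below the highest melan-a signal. For A_51_P315530 the signals were 258.8 to 1162 in melan-a and 783.1 to 4866 in B16. Since Mxd3, which encodes a Max partner that antagonizes Myc, shared the listed ratio, these values describe Mxd3 as well as Nhp2, and neither candidate can be given to 1 of them.

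Across the 4 genes, 13 of the 19 candidates had their largest difference in replicate 4, 7 had their smallest in replicate 1 and 6 in replicate 5. The median log2 ratio of the 19 candidates was -1.15, -1.81, -1.47, -2.45, -1.14 and -1.44 in replicates 1 to 6. The 2504 probes called lower in melan-a, which include the candidates, had medians of -0.62, -1.07, -0.85, -1.38, -0.82 and -0.88. In both, replicate 4 was the lowest. The median SD over arrays was 0.66 for the candidates, 0.51 for the probes called lower and 0.35 for all probes tested. The part of array-wide spread in the values of the 4 genes was not tested. By Pearson correlation over the 6 arrays, no gene among 351 with a single, unshared candidate was among the 3 most alike for every candidate of Myc, of Npm1, of Ncl or of Nhp2. Since the candidates of each gene include probes of other listed entries, such a gene was unlikely in advance, and nothing is read from this.

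The dye labelling gives a comparison that the choice of the candidates did not use, since the mean over arrays is the same however the 2 labellings split it. With melan-a in Cy5 the mean log2 ratio of the candidates lay between -1.83 and -0.73 (3 arrays each), and with melan-a in Cy3 between -2.24 and -1.29. Since the selection fixed the mean, only the difference between labellings is read here. The difference between labellings, standard minus flip, ranged from -0.40 to 1.19 with a median of 0.55, and 16 of 19 candidates had the deeper ratio with melan-a in Cy3. Over all probes, which lie on both sides of 0, the median of this difference was -0.0048. The 2504 probes called lower in melan-a had median log2 ratios of -0.62, -0.85 and -0.82 in replicates 1, 3 and 5 (standard). Their medians were -1.07, -1.38 and -0.88 in replicates 2, 4 and 6 (flip). A deeper ratio with melan-a in Cy3 was thus not particular to the candidates. In limma with a labelling term 0 of 19 candidates passed an adjusted p of 0.10 (adjusted p from 0.28 to 0.98), beside 0.0403% of all probes, and 5 of 19 had an unadjusted p under 0.05, beside 13.2% of all probes.

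The candidates with the largest labelling differences were found in 3 of the 4 genes. For Myc A_52_P108346 the mean was -0.73 with melan-a in Cy5 and -1.92 with melan-a in Cy3, a difference of 1.19 ± 0.53 (SE; limma adjusted p = 0.38). For Ncl A_51_P418526 it was -1.14 against -2.13, a difference of 0.99 ± 0.32 (SE; limma adjusted p = 0.28). For Npm1 A_52_P732583 it was -1.27 against -2.22, a difference of 0.95 ± 0.32 (SE; limma adjusted p = 0.28). Both Nhp2 candidates differed by less, 0.55 ± 0.52 and 0.59 ± 0.38 (SE). The unadjusted p of the 3 named probes was 0.049, 0.013 and 0.015 in the limma fit, and none of the 19 candidates passed after adjustment over all probes.

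**Figure D3:**
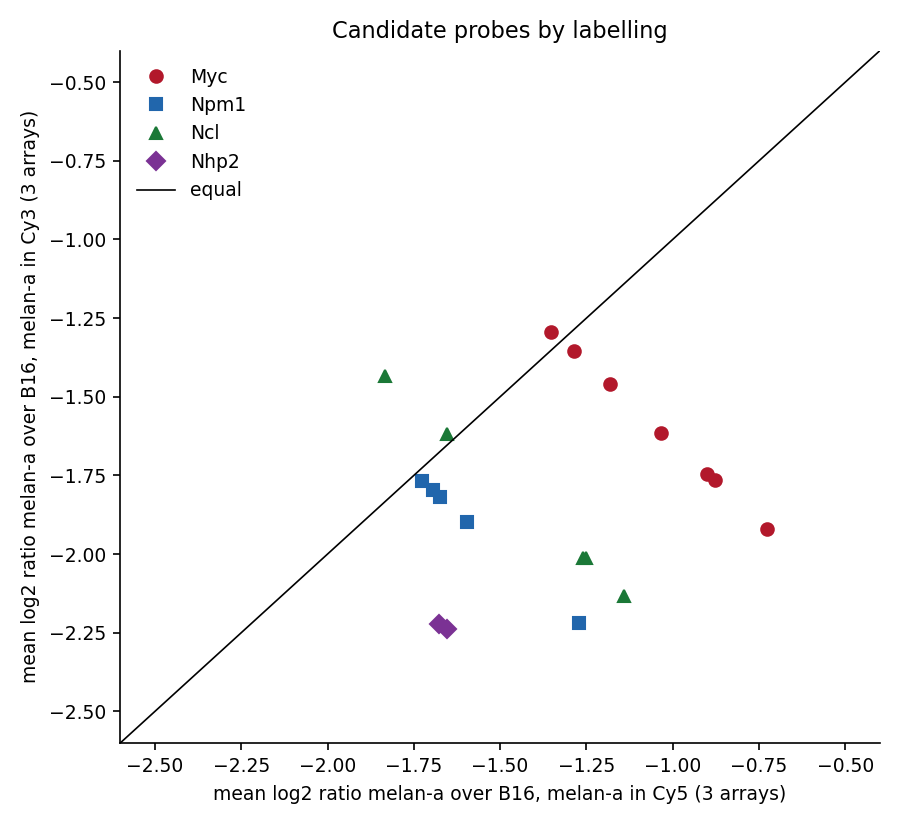
Each point is 1 candidate probe, with its mean log2 ratio of melan-a over B16 on the 3 arrays with melan-a in Cy5 on the x axis and on the 3 arrays with melan-a in Cy3 on the y axis; the line marks equal means. Of 19 points 16 lie below the line, and the points of a gene lie on a falling diagonal because the selection fixed their mean.

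The genes around Myc and the nucleolus were read from lists of known members. A list gene could be given probes only if the study's list named it, and that list was chosen on these same arrays, so all genes found had to differ. Their counts and limma adjusted p are no independent evidence of a change. Of the 3549 listed entries 1168 have no symbol, so a gene not found by symbol may still be in the study's list. A list gene is counted as lower or higher where every one of its candidates passed the limma thresholds in that direction. By this count 36.9% of the 2381 listed entries with a symbol were lower in melan-a and 31.5% higher, and 56.7% had a mean ratio below 1. Their median log2 ratio was -0.65. Where a gene has several candidates, its call and its highest adjusted p rest on the weakest of them, which may be the probe of another entry. A gene with more candidates is thus more readily undecided. Neither value then describes the spread of the gene's own probe. Of the list genes named for their change, all but Cdkn2b, Gadd45b, Gas1, Ndrg1 and Rpl22 shared their ratio, and so their candidates, with at least 1 other listed entry. Of 12 melanocyte markers, 2 were found by symbol: Kit, the receptor for stem cell factor, at 0.89 ± 0.27 and Oca2, a melanosomal transporter, at 2.55 ± 1.71 (SD, n = 6), both higher in melan-a. Of 6 fibroblast markers only Col1a1 was found, at 2.84 ± 2.04 and also higher in melan-a, and of 4 keratinocyte markers none was. The other markers were not analysed here, and the part of other cells in the results was not tested.

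In the network of Myc, Max and their partners, 5 of 18 genes were found. One of them, Mxd3, has the candidates of Nhp2 and is left out of the count. Of the other 4, 1 was lower and 1 higher in melan-a, with a median log2 ratio of -0.65. Max itself was not found by symbol and was not analysed here. Ruvbl1, an ATPase found in complexes with Myc, was lower in melan-a, with mean log2 ratios about a median of -1.29 at 8 candidates (SD 0.18 to 0.88; limma adjusted p = 0.016 at the most). Mxd4, a further Max partner that antagonizes Myc, was higher in melan-a, at 0.84 with 5 candidates (SD 0.36 to 0.90; limma adjusted p = 0.093 at the most).

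In the H/ACA ribonucleoprotein, to which Nhp2 belongs, 1 of 6 other genes was found by symbol. Shq1, an assembly factor of the complex, was lower in melan-a, with a mean log2 ratio of -0.89 at 14 candidates (SD 0.36 to 0.78; limma adjusted p = 0.050 at the most). Dkc1, Nop10 and Gar1, the other core proteins, were not found by symbol and were not analysed here. In the box C/D ribonucleoprotein, which methylates ribosomal RNA, 1 of 9 genes was found by symbol and Fbl, the methyltransferase, was not. Nop58, a core protein of that complex, was lower in melan-a at both candidates. For A_51_P199927 its log2 ratios were -0.96, -1.19, -2.21, -2.13, -1.65 and -1.60, and for A_51_P496751 they were -1.49, -2.003, -0.67, -2.88, -0.84 and -1.88 (limma adjusted p = 0.0011 and 0.0044). All 12 values were below 0, and Rcc1 shared the listed ratio.

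Among 10 relatives and partners of Npm1 and Ncl, 5 were found. One of them, Xpo1, the export receptor for Npm1 and for ribosomal subunits, has the 7 candidates of Myc and is left out of the count. Of the other 4, 3 were lower and none higher in melan-a, with a median log2 ratio of -0.84. Of all listed entries with a symbol 36.9% were counted as lower. Ran, the GTPase of nuclear transport, was lower, with mean log2 ratios of -1.48 to -1.47 at 3 candidates (SD 0.48 to 0.83; limma adjusted p = 0.0071 at the most). C1qbp (-0.80 to -0.79, 9 candidates) and Trp53 (-0.79, 6 candidates), the gene of p53, were lower with limma adjusted p of at most 0.092 and 0.085. Npm3 was not found by symbol and was not analysed here.

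The genes of ribosome assembly found in the study's list had median log2 ratios below 0, and most were counted as lower in melan-a. In 5 lists together, RNA polymerase I transcription, H/ACA and box C/D ribonucleoproteins and the assembly of the small and the large subunit, 43 of 128 genes were found, 27 of them counted as lower, none as higher and 16 undecided. The share of 62.8% lower stands beside 36.9% of all listed entries with a symbol and 65.0% of those with a ratio below 1. With a replicate left out the 27 became 12 to 23, the fewest without replicate 2, 14 without replicate 5, 15 without replicate 6 and 17 without replicate 3. Their median log2 ratio was -0.83, beside -0.65 over all listed entries with a symbol. The 43 genes rested on 411 candidate probes, some of which they shared with each other and with genes outside these lists.

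By step, 3 of 16 genes of RNA polymerase I transcription were found by symbol, 2 of them lower: Polr1a, the largest subunit, at a log2 ratio of -0.97 with 6 candidates (limma adjusted p = 0.018 at the most), and Polr1c, at -0.73 with 13 (limma adjusted p = 0.088 at the most). Of 45 genes of small subunit assembly 15 were found by symbol and 10 counted as lower, with a median of -0.76. The largest changes were those of Mphosph10 (-1.20), Tsr1 (-1.13), Heatr1 (-1.10) and Emg1 (-1.03), with limma adjusted p of at most 0.023, 0.061, 0.012 and 0.091. Heatr1 also takes part in polymerase I transcription, and Emg1 is a methyltransferase of the small subunit's RNA. Of 52 genes of large subunit assembly 23 were found by symbol and 13 counted as lower, with a median of -0.85. The largest changes were those of Gtpbp4 (-1.39), Wdr12 (-1.24), Rrp1b (-1.22) and Noc2l (-1.18), with limma adjusted p of at most 0.038, 0.031, 0.0050 and 0.0049. Rrs1, which in yeast helps to bring 5S RNA into the large subunit, was lower, at -1.05 with 4 candidates (limma adjusted p = 0.030 at the most), with 1 value above 0 in each of 2 candidates (0.18 in replicate 1 and 0.12 in replicate 4). Rrs1 was no exception. Single values above 0 also occurred at candidates of Gtpbp4 (up to 0.98), Tsr1 (0.70), Emg1 (0.47), Polr1c (0.23) and Polr1a (0.01). The same held for Trp53 (0.48), C1qbp (0.33), Shq1 (0.13) and Rpl4 (0.09). Mxd4, counted as higher, had values below 0 (down to -0.40).

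**Figure D4:**
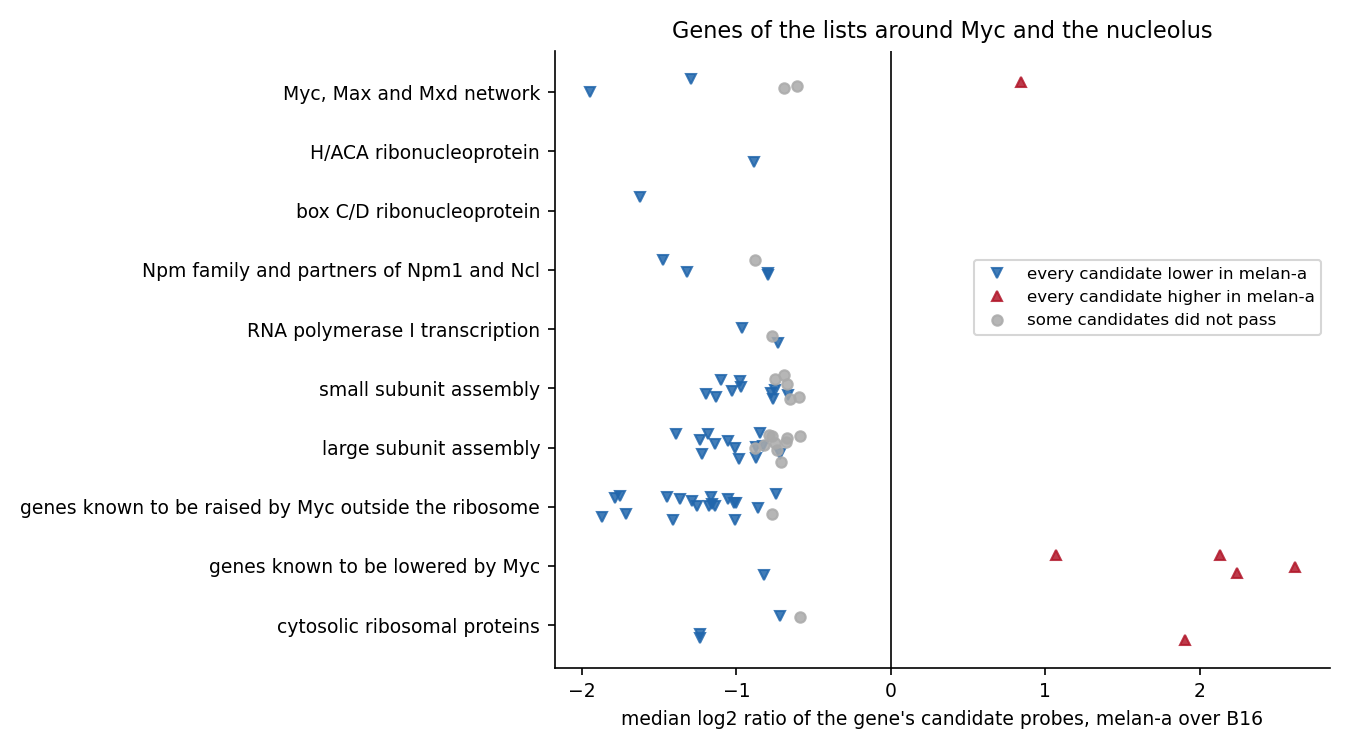
Each point is 1 listed gene, with the median log2 ratio of melan-a over B16 of its candidate probes on the x axis and the list it belongs to on the y axis; vertical scatter within a list has no meaning, and Mxd3 and Xpo1 are drawn with the candidates of Nhp2 and Myc. Of the 43 genes in the 5 ribosome assembly lists all lie below 0, 27 of them with every candidate past the thresholds, and 4 of the 5 genes known to be lowered by Myc lie above 0.

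Of 81 cytosolic ribosomal proteins 5 were found by symbol, of which 3 were lower and 1 higher in melan-a, beside 36.9% and 31.5% of all listed entries with a symbol. Rpl22l1, a paralogue of Rpl22, was lower, with mean log2 ratios of -1.24 to -1.23 at 6 candidates (limma adjusted p = 0.029 at the most), as were Rpsa at -1.24 with 7 and Rpl4 at -0.72 with 6 (limma adjusted p = 0.031 and 0.051 at the most). Rpsa and Wdr12 shared a listed ratio and therefore their candidates. Rpl22 had a single, unshared candidate and was higher in melan-a, with log2 ratios of 3.41, 1.68, 1.97, 0.83, 1.33 and 2.20 (mean 1.90 ± 0.88, SD, n = 6; limma adjusted p = 0.0030). Rpl22 was above 0 on each array.

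Of 35 genes known from other work to be raised by Myc, outside the ribosome, 20 were found by symbol. Of these 19 were counted as lower in melan-a and none as higher, with a median log2 ratio of -1.17. By the same count 36.9% of all listed entries with a symbol were lower, and 65.0% of those with a ratio below 1. The difference was not tested. Among the 19, Ccne1 and Ppat have the candidates of Nop16 and Pak1ip1, which are counted in large subunit assembly. Hspd1, a mitochondrial chaperonin, had log2 ratios of -1.54, -2.18, -1.68, -3.03, -1.25 and -1.52 at A_51_P514405 and of -2.42, -2.31, -1.59, -2.14, -1.07 and -1.70 at A_52_P1172972 (limma adjusted p = 0.0013 and 0.00086). Mthfd2, an enzyme of mitochondrial folate metabolism, was lower, at -1.79 to -1.78 with 5 candidates, and so was Eif2s1, a subunit of a translation initiation factor, at -1.76 to -1.75 with 4 (limma adjusted p = 0.0065 and 0.0080 at the most). Slc2a5 shared the ratio of Hspd1. Tfrc, the transferrin receptor, was lower, at -1.71 with both candidates (limma adjusted p = 0.0035 at the most). Odc1, a classical Myc target, was not found by symbol and was not analysed here.

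Several of these calls ended when an array was left out. A call ends as soon as 1 candidate fails, so a gene with many candidates loses it more readily. The steadiness of a gene's own probe is therefore not shown where it has several candidates. Polr1c had 13 candidates with limma adjusted p from 0.0026 to 0.088, and Hspd1 and Tfrc had 2 each. With every replicate left out in turn, no omission ended the call of Nop58, Ran, Ruvbl1, Polr1a, Heatr1, Mphosph10, Wdr12, Rrp1b, Noc2l, Rpl22l1, Rpl22, Rpsa, Hspd1, Mthfd2, Eif2s1 or Tfrc. The calls of Polr1c and Trp53 ended whichever replicate was left out, those of C1qbp, Emg1 and Rpl4 with 5 of the 6, those of Shq1, Mxd4 and Tsr1 with 4, that of Gtpbp4 with 3 and that of Rrs1 without replicate 2. Without replicate 2 the genes counted as lower were 3 in small subunit assembly and 7 in large subunit assembly, and without replicate 5 they were 3 and 9.

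Of 11 genes known to be lowered by Myc 5 were found by symbol, of which 4 were higher and 1 lower in melan-a. By the same count 31.5% of all listed entries with a symbol were higher and 36.9% lower. Ndrg1, which has a single candidate, had log2 ratios of 2.76, 4.18, 3.11, 2.47, 1.59 and 1.58 (mean 2.61 ± 0.99, SD, n = 6; limma adjusted p = 0.0014). Gas1, a growth arrest gene, had 0.69, 2.86, 3.81, 2.82, 1.96 and 1.32 (limma adjusted p = 0.0041), and Cdkn2b, an inhibitor of Cdk4, had 0.67, 2.08, 1.08, 1.82, 0.61 and 0.16 (limma adjusted p = 0.020). All 3 were above 0 on each array. By the paper's account B16 carries major deletions in the genes of p16INK4a and p19, and the state of Cdkn2b in B16 was not tested. Gadd45b, a stress-induced growth arrest gene, was higher, at 2.13 with both candidates, with 1 of the 12 values below 0 (-0.21 in replicate 4 at A_52_P549827). Cdkn1a, the inhibitor p21, was the gene on the other side of 0, at -0.82 with 11 candidates (limma adjusted p = 0.084 at the most). Its call ended with 5 of the 6 replicates left out, and it was chosen for mention after its value was seen.

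An E-box was found more often in the promoters of several of these lists than in the table as a whole, where 8.1% of 27025 genes had at least 1. The share was 11 of 37 genes with a promoter for small subunit assembly, 8 of 44 for the large subunit, 10 of 32 for genes known to be raised by Myc, 1 of 12 for RNA polymerase I transcription and 6 of 60 for ribosomal proteins. It was 5 of 18 in the network of Myc, 3 of 9 among partners of Npm1 and Ncl, 2 of 9 for genes known to be lowered by Myc, 0 of 5 for the H/ACA and 0 of 7 for the box C/D ribonucleoprotein. Among the genes counted as lower in melan-a, an E-box was present in 1 of 9 of small subunit assembly, 0 of 10 of large subunit assembly and 6 of 18 of those known to be raised by Myc. It was present in 2 of 4 partners of Npm1 and Ncl (Ran and Trp53). None was found in the lower genes of the other lists: 2 of RNA polymerase I transcription, 2 of the Myc network and 3 ribosomal proteins. The same held for the 1 lower gene each of the H/ACA and box C/D ribonucleoproteins and of those known to be lowered by Myc. The lists were drawn up from knowledge of Myc and its targets, and no test was made. The 4 genes counted as lower with an E-box and the largest changes are given below, with 12 bases on either side of it. Capitals mark the E-box. These genes were picked for holding an E-box, so its presence in them is no result. They lie at chr1:55088306-55088335 (Hspd1, minus strand), chr5:129020026-129020055 (Ran, plus strand), chr11:93968273-93968302 (Nme1, minus strand) and chr9:108560314-108560343 (Impdh2, plus strand) of GRCm38.p6.
Hspd1: ggccggctgggaCACGTGaaaaggccgcgc
Ran: gctcggccggccCACGTGacccgccgcccc
Nme1: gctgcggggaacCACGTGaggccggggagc
Impdh2: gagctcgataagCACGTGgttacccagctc
The E-box began at positions -80, -118, -18 and -110 from the start of these genes in the same order. Nme1, a nucleoside diphosphate kinase, was lower in melan-a, at a log2 ratio of -1.37 with its single candidate, and Impdh2, an enzyme of guanine nucleotide synthesis, at -1.18 with 7 candidates (limma adjusted p = 0.013 and 0.025 at the most).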

How the data were processed

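Each of the 6 deposited array files holds log2 values of 44290 spots, which the authors made with ImaGene 6.0.1 and, per the file headers, normalized within the array by a global lowess (smoothing 0.2) without background correction. Genome build and probe annotation are not given in the sources used here. Image order differs in replicate 3 (Cy5 before Cy3), so each signal was assigned by its image name. The deposited series matrix holds the same log2 ratios, turned to melan-a over B16 and not centred, with the columns of replicates 4 and 5 exchanged. It served as an alternative. Replicate 1 differs from the rest in its day of quantification in the headers, and results were recomputed without it. Columns of mode signals were not used, and the study's own fold column served only to link genes to probes.

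Ratios of mean signals were turned to melan-a over B16 by the dye labels. A spot needed a sum of both signals above 400, and 39687 of 41174 probes with at least 3 arrays were tested by a one-class fit in limma 3.58.1 under R 4.3.3, with Benjamini-Hochberg adjustment over all probes. A second fit added a labelling term. The code was tested on simulated data. The tables and plots were made in Python 3.11.15 (matplotlib 3.10.9, pandas 2.3.3, numpy 2.4.6, scipy 1.17.1). RefSeq tables turned 2381 of the 3549 listed entries into symbols (2282 by accession, 41 by symbol, 58 by synonym), and 497 entries had a single candidate. The number of arrays limits the precision.

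Named were all candidates of the 4 genes, up to 4 genes of each list with the largest change among those whose candidates all passed in 1 direction, and Max, Dkc1, Nop10, Gar1, Fbl, Npm3, Rrs1 and Odc1. Nme1 and Impdh2 were named for their promoters, and Ccne1, Ddx18, Lyar, Nop16, Pak1ip1 and Ppat for the candidates they share. The members and lists were chosen with earlier results of these data known. Alternatives were median signals, no limit or a limit of 800 on the summed signal, median-centred arrays, equal weight of the labellings, the series matrix, one-class SAM, a tolerance of 0.001 and leaving out each replicate.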

Additional observations from a re-analysis of the deposited data

Results flagged for a closer look

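Of 190 probes with 6 array values, each counted once and a candidate of a gene with values in the text, 7 held a value far from the other 5, by Dixon's ratio of the gap to the whole range, above the 95% critical value for 6 values. Chance flags about 1 in 20 such probes, and none of the 19 candidates of Myc, Npm1, Ncl and Nhp2 was among them. At Emg1 A_51_P434171 the log2 ratio of replicate 4 was -3.28 and the others lay between -0.74 and -0.29. At Gtpbp4 A_51_P136097 replicate 2 was at 0.98, above 0, and the others between -2.24 and -1.46. At Heatr1 A_51_P432034 replicate 2 was at -2.35 against -1.17 to -0.58, and at Heatr1 A_52_P209992 replicate 1 was at -0.45 against -1.39 to -1.11. Replicate 1 was at -0.068 for Polr1a A_52_P250278, where the others lay between -1.32 and -0.91. For Polr1c A_51_P209308 replicate 3 was at -2.09 and the others between -0.72 and -0.01. For Rpl22l1 A_51_P218814 replicate 4 was at -3.10 and the others between -1.38 and -0.36.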

How the results depend on the processing

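The mean log2 ratio of each of the 19 candidates was recomputed under 12 alternatives. The selection on the same mean and the small changes these alternatives can make fix much of the outcome, so the values are given with no reading. Leaving out 1 replicate at a time gave -1.55 to -1.06 for Myc, -2.06 to -1.47 for Npm1, -1.87 to -1.38 for Ncl and -2.18 to -1.67 for Nhp2. The other alternatives gave -1.62 to -1.32, -2.33 to -1.74, -1.84 to -1.63 and -2.25 to -1.94, and with median signals the B16 signal was up to 4.83-fold that of melan-a for Npm1. With a tolerance of 0.001 there were 8 candidates for Ncl and 5 for Nhp2 in place of 5 and 2. Leaving out replicates gave 1576 to 2235 probes higher and 2011 to 2815 lower in melan-a, against 2076 and 2504, and one-class SAM gave 2142 and 2588. Probes with a labelling effect numbered 16 on all arrays and 0 to 58 with a replicate left out, the highest without replicate 6 and the lowest without replicate 5, and no candidate passed in any of these. Over all 10 lists 56 genes were counted as lower (Mxd3 and Xpo1 included), and 33 to 51 with a replicate left out, the fewest without replicate 2 (33) and 37 without replicate 5 or 6, while the genes higher numbered 6, and 5 to 6. Some of the 56 rest on the same candidates and are counted more than once, such as Ddx18 with Lyar, Nop16 with Ccne1, Pak1ip1 with Ppat and Wdr12 with Rpsa. Each array compares both lines directly, so the ratios are paired within a replicate by design, and no further replicate block could be fitted. Signal over background limits the ratios of dim candidates. The lowest summed signal of an Npm1 candidate was 582.3, in replicate 6, where negative control spots had a median of 300.2. In replicate 1 the same candidate summed to 662.5, beside a negative control median of 533.4.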
